A study of Mus musculus with 12 samples.

Results

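Osteoclasts, the cells that resorb bone, form from monocyte-macrophage precursors under the control of a few secreted and membrane proteins, and 7 genes of that control are described here: Tnfsf11, Tnfrsf11a, Tnfrsf11b, Csf1, Csf1r, Il34 and Tnf. The members were all probe sets whose platform annotation names 1 gene that is one of these 7. This gave 15 probe sets of the 34945 that name 1 gene on the array, and 7 of 18193 genes.

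The cells came from whole bone marrow cultures of female C57BL/6 mice aged 6 weeks. There were 4 groups of 3 arrays: c-kit+ cells from cultures given 17βE (17β-estradiol, the main circulating estrogen) at 1 nM for 1 week, c-kit+ cells from control cultures without it, CD44+ cells from 17βE cultures, and CD44+ cells from control cultures. The labels call the c-kit+ cells stem cells and the CD44+ cells stromal cells, and do not say whether the 3 replicates of a group are separate mice or cultures, so p-values measure the spread between these arrays only. Values are log2 intensities from Affymetrix mouse arrays, so a difference of 1 is a doubling in signal, and the number of arrays limits the precision.

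M-CSF, the product of Csf1, keeps the precursors alive and proliferating by binding the receptor Csf1r, which Il34 also binds. RANK ligand, the product of Tnfsf11, binds RANK (Tnfrsf11a) on the precursors and switches on osteoclast genes through NF-kappaB and Nfatc1, and osteoprotegerin (Tnfrsf11b) is a secreted decoy that takes RANK ligand away. Tnf is an inflammatory cytokine that adds to RANK signalling in precursors. In bone marrow, stromal and osteoblast-lineage cells are known sources of M-CSF, RANK ligand and osteoprotegerin, while macrophages make Tnf, and loss of estrogen in the body is known for raising osteoclast formation.

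The promoters of Tnf and Csf1 are shown because these members carried the 17βE and the fraction difference described further on. They are RefSeq windows of build GRCm38.p6 that run from 250 bases before to 50 bases after the start site. Windows of 4 of the 7 members were used, after a chromosome filter that was not applied to the windows of all genes. Capitals mark a TATA box in Tnf, on chr17:35201958-35202257 (minus strand), and a kappaB-type motif in Csf1, on chr3:107760420-107760719 (minus strand).
Tnf: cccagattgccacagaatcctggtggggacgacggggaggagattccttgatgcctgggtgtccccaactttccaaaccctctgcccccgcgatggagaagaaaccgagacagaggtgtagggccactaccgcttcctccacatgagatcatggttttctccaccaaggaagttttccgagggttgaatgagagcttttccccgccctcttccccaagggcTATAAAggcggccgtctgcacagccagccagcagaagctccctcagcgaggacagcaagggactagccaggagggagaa
Csf1: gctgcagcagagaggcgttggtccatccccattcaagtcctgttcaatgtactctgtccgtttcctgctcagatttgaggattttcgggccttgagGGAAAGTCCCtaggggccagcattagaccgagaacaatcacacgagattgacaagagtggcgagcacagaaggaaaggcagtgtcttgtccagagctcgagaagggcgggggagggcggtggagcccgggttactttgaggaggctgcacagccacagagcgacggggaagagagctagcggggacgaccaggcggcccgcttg
The motifs searched, on both strands, were TATAAA, the estrogen response half-site AGGTCA and the kappaB-type motif GGGNNNTTCC. The Tnf match begins 29 bases before the start site, and the Csf1 match, which lies on the opposite strand, begins 154 bases before it. Tnfsf11 also held TATAAA, on the opposite strand, beginning 32 bases before its start site. No 2 matches overlapped. TATAAA stood in 13.6% of the 32851 windows of all genes, AGGTCA in 16.3% and GGGNNNTTCC in 5.56%. None of the 4 member windows held AGGTCA, which says only that these letters are not in these windows.

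The identity of the cells was checked against marker genes. Kit, which encodes the c-kit receptor, lay between 3.79 and 4.22 on all 12 arrays, below the background level defined below, and did not pass in either comparison of c-kit+ with CD44+ cells (adjusted p = 0.994 in 17βE and 0.939 in control cultures). Of 8 measured stem and progenitor markers, none was above background in the c-kit+ groups, while 2 were in CD44+ cells from 17βE cultures and 3 in CD44+ cells from control cultures. Cd44 lay between 11.76 and 12.46 on all arrays with no difference that passed. Of 12 macrophage and monocyte markers, 11 were above background in every group, with Adgre1, a surface receptor of mature macrophages, between 13.0 and 13.74 and Cd163 at background. The Kit values went against the label of the c-kit+ cells, macrophage markers were high in both fractions, and the names c-kit+ and CD44+ are used here only for the sort. No marker of mast cells and basophils (8 measured), B and plasma cells (6), neutrophils (7), endothelial cells (5) or dendritic cells (5) was above background in any group, while 1 of 7 for T and NK cells and 1 of 4 for erythroid cells were in every group. Mesenchymal stroma and osteoblast markers set the fractions apart: 7 of 12 measured were lower in c-kit+ than in CD44+ cells in 17βE cultures and 6 of 12 in control cultures, with Col1a2 (type I collagen) differing by -3.54 and -3.37. Some macrophage and monocyte markers went the other way, 2 of 12 being higher in c-kit+ cells in 17βE cultures (Mrc1, the mannose receptor, by 0.66 and C1qb, a complement subunit, by 0.57) and 3 of 12 in control cultures (Mrc1 by 0.66, C1qb by 0.55 and Fcgr1, an antibody receptor, by 0.71). The log2 ratio of the 3' to the 5' Gapdh control is a measure of RNA quality and amplification. It was 4.23 to 6.17 in c-kit+ cells and 2.83 to 4.31 in CD44+ cells (log2 difference of the probe sets). It thus ran higher in c-kit+ cells, with a small overlap, and its part in the fraction differences was not tested. The third c-kit+ control array stood apart: its values differed from the mean of the other 2 arrays of its group with an SD of 0.407 over all probe sets, against 0.185 to 0.294 for the other 11 arrays. Without it Tnf still passed in the averaged 17βE comparison and no member call was lost, while the averaged comparison called 464 probe sets in place of 275.

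A probe set was counted as above background in a group where it exceeded, on each of the 3 arrays, the highest Y-linked probe set of that array, since the mice are female; this level ran from 6.13 to 6.37. By this measure 8 of the 15 member probe sets were above background, the same 8 in every group: both for Tnfrsf11a, 2 of 4 for Csf1, all 3 for Csf1r and the 1 for Tnf. RANK ligand, Il34 and osteoprotegerin had none. Of all 18193 genes, 8735 had their probe set of highest mean above background in at least 1 group, so the member count is not read as a trait of these genes. The level is set by the Sry probe set, and the highest Y-linked probe set other than Sry lay at 4.04 to 4.54. Against that lower level, chosen after seeing the data, 10 members were above background in both c-kit+ groups and in control CD44+ cells and 11 in CD44+ cells with 17βE.

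**Figure D1:**
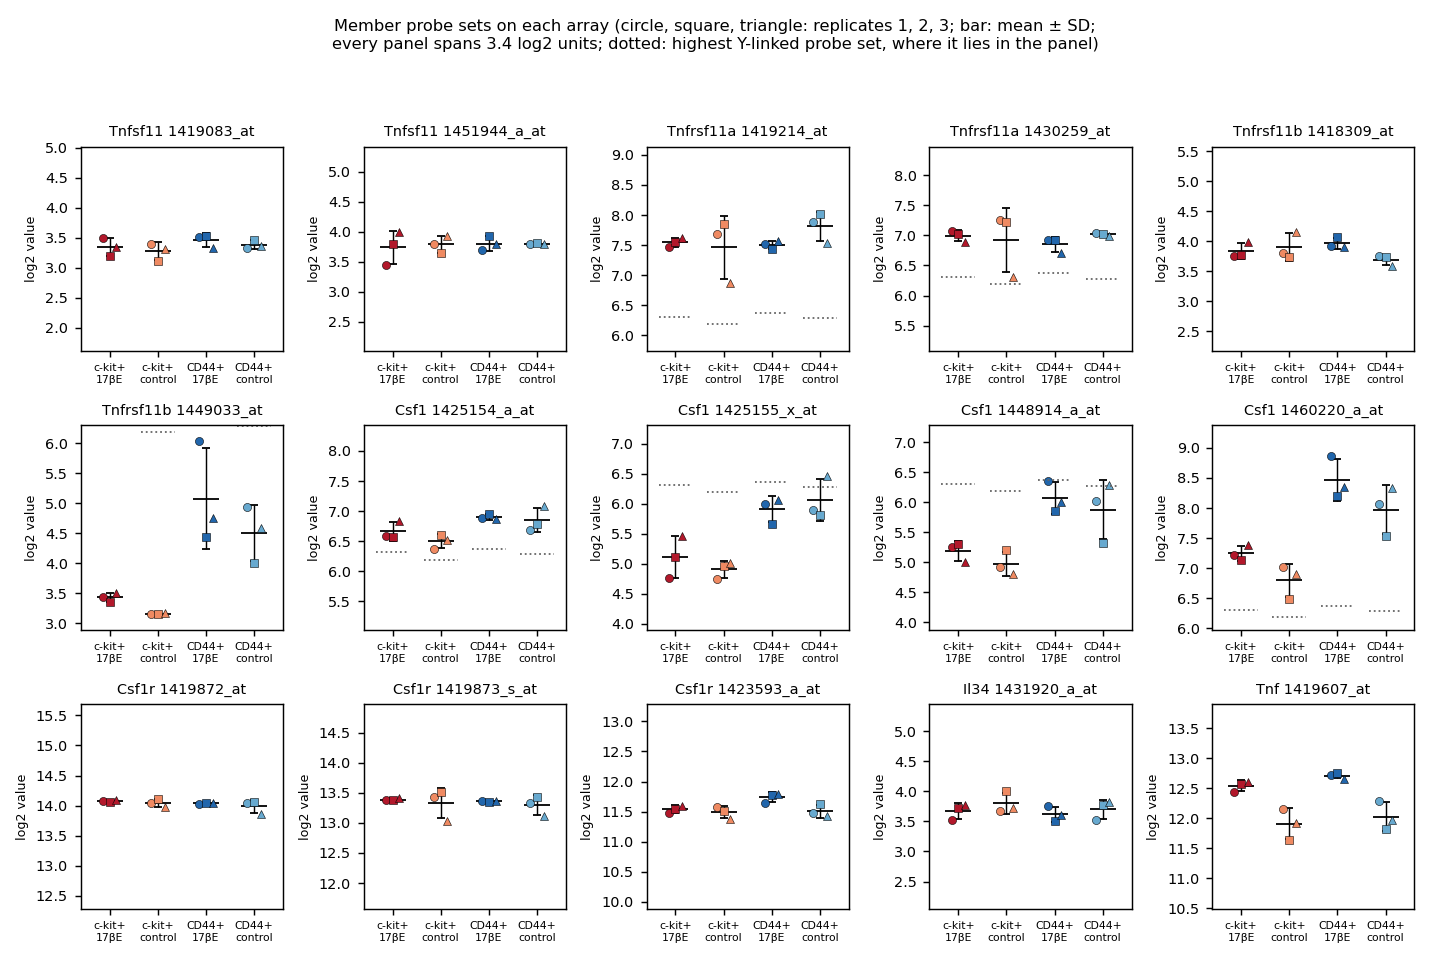
Log2 value of each of the 15 member probe sets (vertical axis) on each of the 12 arrays, by group (horizontal axis); points are arrays, bars the mean and SD of 3 arrays, and dotted lines the highest Y-linked probe set. Tnf is higher on all 6 17βE arrays than on all 6 control arrays, and Csf1 1460220_a_at is lower on the c-kit+ arrays than on the CD44+ arrays of the same culture.

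Tnf was the member that rose with 17βE. Its probe set 1419607_at read 12.44, 12.57 and 12.61 in c-kit+ cells from 17βE cultures, against 12.16, 11.64 and 11.92 in those from control cultures. In CD44+ cells it read 12.72, 12.75 and 12.66 with 17βE, against 12.29, 11.82 and 11.97 in control cultures. Every 17βE array was above every control array. The difference was 0.64 (SE 0.14, adjusted p = 0.191) in c-kit+ cells and 0.68 (SE 0.14, adjusted p = 0.11) in CD44+ cells, neither past the threshold of 0.05 on its own. Averaged over both fractions it was 0.66 (SE 0.10, 95% interval 0.44 to 0.88), or 1.58-fold, with an adjusted p of 0.00716, and it passed under all 19 alternatives. The difference between the fractions' responses was -0.05 (95% interval -0.48 to 0.39, adjusted p = 1.00). Between fractions Tnf differed by -0.17 in 17βE cultures and -0.12 in control cultures, neither past the threshold.

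The averaged comparison called 275 probe sets, 0.787% of all, of which 234 (0.67%) were higher in 17βE cultures; 1 of 15 members, Tnf, was called. In c-kit+ cells alone 0.117% of probe sets were called and in CD44+ cells alone 0.212%, and no member was among them. At an unadjusted p under 0.05 there were 1678 (4.8%) and 1880 (5.38%) probe sets, with 1 and 4 members. Tnf was among them in each fraction. In CD44+ cells the others were Csf1 1460220_a_at, Csf1r 1423593_a_at and osteoprotegerin 1418309_at, the last at background. The difference of the estradiol effects called 0% of probe sets by limma, with 701 (2.01%) at an unadjusted p under 0.05 and no member among them. The array means of the 12 macrophage and monocyte markers were 11.32 to 11.53 in 17βE and 11.3 to 11.36 in control c-kit+ cells, and 11.12 to 11.27 in 17βE and 10.97 to 11.16 in control CD44+ cells. Cd14, a macrophage co-receptor for bacterial lipopolysaccharide, was the 1 of those 12 that rose in the averaged comparison, by 0.43 (adjusted p = 0.0168), and the part of these markers in the Tnf difference was not tested. In these bulk samples a change in the number of cells of a type and in RNA per cell cannot be told apart.

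Several listed genes around RANK and Tnf signalling were also higher with 17βE, in lists chosen with earlier results of these data known. Over all probe sets 0.67% were called higher in the averaged comparison. The counts are not read as a trait of the lists. Of 22 measured genes of RANK signalling, 2 rose in the averaged comparison: Rel, an NF-kappaB subunit, by 0.88 (adjusted p = 0.000216), and Nfkb2, the subunit of the noncanonical pathway, by 0.57 (adjusted p = 0.00473). Rel averaged 7.70 ± 0.15 in 17βE and 6.84 ± 0.07 in control c-kit+ cells, and 7.87 ± 0.07 in 17βE and 6.97 ± 0.20 in control CD44+ cells (SD, n = 3 each). It also passed within each fraction, with adjusted p of 0.012 and 0.00732. Of 13 genes listed here as brakes on osteoclast formation, 3 rose: Socs3, an inhibitor of cytokine signalling, by 0.76 (adjusted p = 0.00186), Tnfaip3, which ends NF-kappaB signalling, by 0.62 (adjusted p = 0.0108), and Nfkbid, a nuclear inhibitor of NF-kappaB, by 0.66 (adjusted p = 0.017). Whether they act as brakes in these cells was not tested. Of 11 genes of the Tnf and lymphotoxin pathway, 1 rose: Birc3, which attaches ubiquitin in Tnf receptor signalling, by 0.75 (adjusted p = 0.00896). Of 12 genes of mature osteoclasts, 1 rose: Acp5, the tartrate-resistant acid phosphatase, by 0.87 (adjusted p = 0.00399). None of 10 genes of ITAM costimulation and none of 11 of M-CSF receptor signalling passed, with Blnk, an adaptor protein, at 0.51 (adjusted p = 0.334) and Pik3cd, a phosphoinositide kinase, at -0.61 (adjusted p = 0.826) among those of smallest p.

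**Figure D2:**
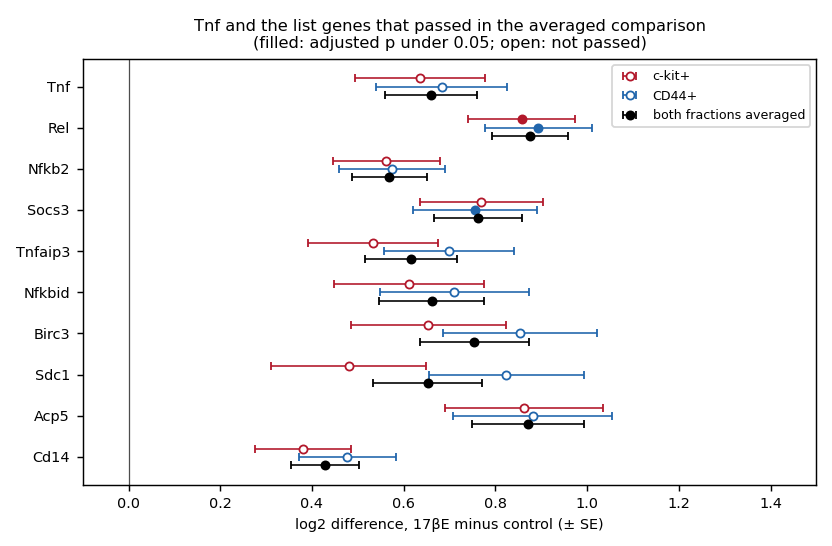
Log2 difference between 17βE and control cultures (horizontal axis, bars are SE) for Tnf and the listed genes that passed in the averaged comparison; red is c-kit+ cells, blue CD44+ cells, black the average over both, and filled points passed. Rel passed in each fraction alone, Socs3 in CD44+ cells and the average, and Tnf, Nfkb2, Tnfaip3, Nfkbid, Birc3, Sdc1, Acp5 and Cd14 in the average only.

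Csf1, the gene of M-CSF, was lower in c-kit+ than in CD44+ cells. At 1460220_a_at, the probe set with the highest mean, c-kit+ cells with 17βE read 7.21, 7.14 and 7.39, against 8.86, 8.20 and 8.35 in CD44+ cells. In control cultures c-kit+ cells read 7.01, 6.49 and 6.90, against 8.06, 7.53 and 8.33 in CD44+ cells. The fractions did not overlap in either culture. The difference was -1.23 (SE 0.21, adjusted p = 0.00823) in 17βE cultures, or 2.34-fold lower in c-kit+ cells, and -1.17 (SE 0.21, adjusted p = 0.0144) in control cultures, or 2.26-fold lower.

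The other 3 Csf1 probe sets also lay lower in c-kit+ cells, with no overlap between the fractions in either culture: with 17βE, 1425155_x_at was 4.76 to 5.46 in c-kit+ and 5.66 to 6.07 in CD44+ cells, 1448914_a_at was 5.0 to 5.31 and 5.85 to 6.36, and 1425154_a_at was 6.56 to 6.84 and 6.86 to 6.95. In control cultures 1425155_x_at was 4.74 to 5.01 in c-kit+ and 5.82 to 6.47 in CD44+ cells, 1448914_a_at was 4.8 to 5.2 and 5.33 to 6.29, and 1425154_a_at was 6.37 to 6.6 and 6.69 to 7.08. All 4 correlated with each other over the 12 arrays (Pearson r 0.753 to 0.909, a description over groups that share the fractions). The share of all probe sets without overlap between groups was not counted. The lack of overlap, at Csf1 and at the other members, is therefore only a description of these arrays. 1425155_x_at and 1448914_a_at were above background on no c-kit+ array and on at most 1 CD44+ array of a culture, so only their values and tests are given, with no size of the difference. 1425155_x_at had an adjusted p of 0.0737 in 17βE cultures (0.0129 with the replicate number as a block) and of 0.00985 in control cultures. 1448914_a_at had 0.0627 and 0.0601. 1425154_a_at, above background throughout, differed by -0.24 (adjusted p = 0.604) and -0.36 (adjusted p = 0.209).

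The fraction comparison called 665 probe sets in 17βE cultures, 1.9% of all, with 1.7% lower in c-kit+ cells, and 578 (1.65%) in control cultures, with 1.22% lower. Of the 15 members 2 were lower in each, Csf1 and osteoprotegerin by 1 probe set each in 17βE cultures and Csf1 by 2 in control cultures. Of these calls only those at Csf1 1460220_a_at were of a probe set above background. In control cultures the call at 1460220_a_at was lost without c-kit+ replicate 2 (adjusted p = 0.0501), CD44+ replicate 1 (0.055) or CD44+ replicate 3 (0.0801), and that at 1425155_x_at without c-kit+ replicate 1 (0.053). With the 6 control-culture arrays fitted alone, neither passed (adjusted p = 0.1 and 0.054). In 17βE cultures the call at 1460220_a_at was lost without c-kit+ replicate 2 (0.0549). Stromal markers moved the same way: the mean of the 12 mesenchymal markers was 5.19 to 5.83 on the 17βE c-kit+ arrays and 6.63 to 7.37 on the 17βE CD44+ arrays, and 5.25 to 5.54 and 6.42 to 7.18 on those from control cultures, while 5 of the 12 (Alpl, Dcn, Lepr, Lum and Sp7) were at background on every array. The mean of the 12 macrophage and monocyte markers lay the other way, at 11.32 to 11.53 on the 17βE c-kit+ arrays and 11.12 to 11.27 on the 17βE CD44+ arrays, and at 11.3 to 11.36 and 10.97 to 11.16 on those from control cultures. The part of either list in the Csf1 and osteoprotegerin results was not tested.

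**Figure D3:**
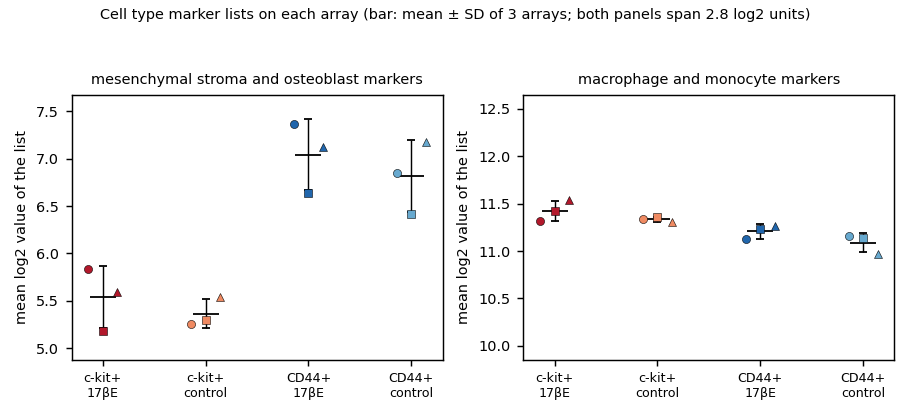
Mean log2 value of 12 mesenchymal stroma and osteoblast markers (left) and 12 macrophage and monocyte markers (right) on each array, by group; bars are the mean and SD of 3 arrays. Of the mesenchymal markers, 5 are at background on every array. Their mean is lower on all c-kit+ arrays (5.19 to 5.83) than on all CD44+ arrays (6.42 to 7.37).

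Csf1 did not pass for 17βE: 1460220_a_at was 0.45 higher in c-kit+ cells (adjusted p = 1.00), 0.50 in CD44+ cells (adjusted p = 0.899) and 0.47 in the average (95% interval 0.15 to 0.80, adjusted p = 0.337). Ordered by mean, the groups were CD44+ with 17βE (8.47 ± 0.34), CD44+ control (7.97 ± 0.40), c-kit+ with 17βE (7.25 ± 0.13) and c-kit+ control (6.80 ± 0.27; SD, n = 3 each). The CD44+ groups overlapped each other, and the c-kit+ groups did not. The genes most like Csf1 over the 12 arrays, among 8735 candidates, were Rhobtb3 (Pearson r 0.978), Fbln2 (0.976) and Igf1r (0.973).

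Osteoprotegerin (Tnfrsf11b) was at background on every array by the measure above. At 1449033_at the signal was lower on c-kit+ than on CD44+ arrays. It read 3.44, 3.36 and 3.51 in c-kit+ cells from 17βE cultures, against 6.03, 4.44 and 4.76 in CD44+ cells. In control cultures it read 3.16, 3.16 and 3.17 in c-kit+ cells, against 4.93, 4.01 and 4.59 in CD44+ cells. The fractions did not overlap in either culture. The test gave an adjusted p of 0.0187 in 17βE cultures and 0.0615 in control cultures. Since no array was above background, no size of the difference is given, although all 3 CD44+ arrays with 17βE and 2 of the 3 CD44+ control arrays were above the highest Y-linked probe set other than Sry and no c-kit+ array was. The call in 17βE cultures was lost without c-kit+ replicate 1 (adjusted p = 0.0755), 2 (0.0964) or 3 (0.0574). Averaged over both cultures, an alternative chosen after seeing the data, the adjusted p was 0.00166. No 17βE comparison passed (adjusted p = 0.834 in the average). The other probe set, 1418309_at, stayed between 3.59 and 4.16 on all arrays, with no comparison passing and no correlation with the first (Pearson r -0.04).

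Among 17 stromal regulators of RANK ligand and osteoprotegerin, 4 were lower in c-kit+ than in CD44+ cells in 17βE cultures and 3 in control cultures. Over all probe sets 1.7% were called lower in 17βE cultures and 1.22% in control cultures. These lists too were chosen with earlier results of these data known. Postn, a matrix protein also on the mesenchymal marker list, was at background on all c-kit+ arrays, and in CD44+ cells it averaged 7.69 ± 0.39 with 17βE and 7.19 ± 0.27 in control cultures (SD, n = 3 each). Osmr, the oncostatin M receptor, was above background on 2 of 3 CD44+ arrays in each culture and on no c-kit+ array. Sema3a, a secreted semaphorin, was above background on 1 CD44+ array with 17βE and on no other, and Efnb2, an ephrin that passed in 17βE cultures only, on no array. No size of the difference is given for these 4. Of the 13 genes listed as brakes on osteoclast formation, Irf8, a macrophage transcription factor, was 0.75 higher in c-kit+ cells in control cultures. In 17βE cultures it was 0.46 higher without passing (adjusted p = 0.272). Lgr4, a receptor that also binds RANK ligand, passed as lower in c-kit+ cells in both cultures but was at background on every array. Of the mature osteoclast genes, Ctsk, the collagen-degrading protease cathepsin K, differed by -0.96 in 17βE cultures. In control cultures Ctsk differed by -0.57 without passing (adjusted p = 0.216). Dcstamp, a protein of cell fusion, passed as lower in c-kit+ cells in control cultures, where it was above background on no c-kit+ array and on 2 of 3 CD44+ arrays. It did not pass in 17βE cultures (adjusted p = 0.0552).

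RANK (Tnfrsf11a) was expressed in all groups and no comparison passed. 1419214_at read 7.47, 7.55 and 7.61 in c-kit+ cells with 17βE, against 7.68, 7.85 and 6.87 in control cultures. In CD44+ cells it read 7.51, 7.43 and 7.57 with 17βE, against 7.89, 8.01 and 7.54 in control cultures. The groups overlapped in c-kit+ cells and in CD44+ cells. The 17βE difference was 0.08 (95% interval -0.37 to 0.53) in c-kit+ cells and -0.31 (95% interval -0.76 to 0.14) in CD44+ cells. The lowest value belonged to c-kit+ control replicate 3, which was also lowest at 1430259_at (6.31, against 7.25 and 7.22 for the other two) and was the array that stood apart over all probe sets. Without that array the c-kit+ differences turned negative, to -0.22 at 1419214_at (adjusted p = 0.873) and -0.24 at 1430259_at (adjusted p = 0.759), so their direction rests on it. The second probe set read 6.89 to 7.07 with 17βE and 6.31 to 7.25 in control c-kit+ cells, and 6.71 to 6.93 with 17βE and 6.99 to 7.04 in control CD44+ cells. With all arrays these differences were 0.07 and -0.17, and in CD44+ cells the 17βE arrays lay below the control arrays without passing (adjusted p = 0.961). The genes most like RANK over the arrays were Cadm1 (Pearson r 0.961), Pttg1ip (0.933) and 1110059G10Rik (0.93). These correlations include c-kit+ control replicate 3, the lowest array at 1419214_at (6.87). They were not computed without it and are not read as shared regulation.

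Csf1r, the M-CSF receptor, was read near the top of the array scale in all groups. 1419872_at lay between 13.86 and 14.11, 1419873_s_at between 13.04 and 13.51, and 1423593_a_at between 11.38 and 11.79, where the highest value of any probe set on an array was 14.56 to 14.81. No comparison passed for any of the 3. The largest of their 17βE differences was 0.24 at 1423593_a_at in CD44+ cells (95% interval 0.03 to 0.45, adjusted p = 0.852). At 1419872_at the averaged 17βE difference was 0.04 (95% interval -0.10 to 0.17). Whether values this near the top of the scale understate a difference was not tested.

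RANK ligand (Tnfsf11) and Il34 were at background. 1419083_at lay between 3.11 and 3.53 and 1451944_a_at between 3.45 and 3.99 for RANK ligand, and 1431920_a_at between 3.5 and 4.0 for Il34, in all groups and with no comparison past the threshold. A probe set at background gives an upper bound on the signal and does not show that the gene is off. Of the 2 other receptors of Il34, Sdc1 (syndecan-1) was above background in every group: it rose by 0.65 in the averaged 17βE comparison (adjusted p = 0.0236) and differed between c-kit+ and CD44+ cells by -1.42 in 17βE and -1.08 in control cultures.

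**Figure D4:**
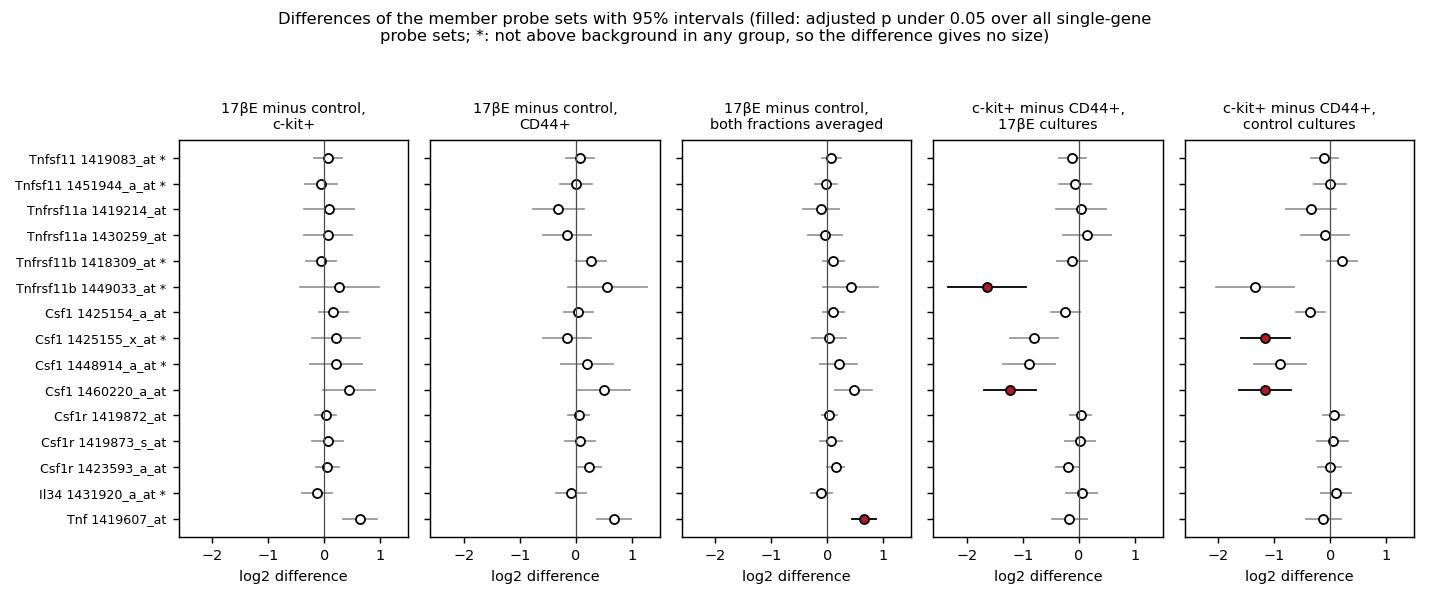
Log2 difference (horizontal axis) of each member probe set (rows) with its 95% interval in 5 comparisons; filled points passed an adjusted p of 0.05 over all 34945 probe sets. Tnf is filled in the averaged 17βE comparison, Csf1 in both fraction comparisons and Tnfrsf11b in that of 17βE cultures. The 7 probe sets marked with an asterisk were not above background in any group, so their plotted differences give no size.

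Across the 15 member probe sets the median difference was 0.07 in each of the 3 17βE comparisons, against 0.014, 0.008 and 0.011 over all probe sets, and in the fraction comparisons it was -0.12 in 17βE and -0.11 in control cultures, against 0.026 and 0.010. Of the 15, 7 were not above background in any group, and Csf1 and Csf1r each count by several probe sets, so these medians give no size for the members as a set. Both fraction medians are values of probe sets at background (1418309_at of osteoprotegerin and 1419083_at of RANK ligand), and so is the averaged 17βE median (1419083_at). The genes most like Tnf over the 12 arrays were Tnfsf9 (Pearson r 0.964), Ccl3 (0.962) and Zfp36 (0.949), and those most like Csf1r were Vapa (0.957), Flvcr1 (0.948) and Efhd2 (0.947). The Csf1r probe set used, 1419872_at, hardly varied (SD 0.065 over the 12 arrays). Its lowest value, 13.86 on CD44+ control replicate 3, lay apart from the rest. The Csf1r correlations were not computed without that array and are not read as shared regulation.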

How the data were processed

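Expression was measured on 12 Affymetrix mouse arrays, 3 in each of 4 groups. Per the labels, total RNA was extracted, amplified and labelled with biotin. Per the submitters' processing notes the authors normalized with RMA (version not given in the sources used here), and the deposited values are log2 intensities, which were used as deposited. Of 45101 probe sets, 64 were controls, 34945 named 1 gene, 932 several and 9160 none here. Symbols come from the platform annotation, and 34741 matched the GRCm38.p6 RefSeq gene table by gene ID.

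All 34945 single-gene probe sets were fitted with limma 3.58.1 in R 4.3.3 (lmFit and eBayes without trend, 1 mean per group over all 12 arrays), with Benjamini-Hochberg adjustment over all of them and a threshold of 0.05. The 6 comparisons were 17βE against control in each fraction, averaged over both, how these 2 effects differ, and c-kit+ against CD44+ cells in each culture. Each gene of a list stands for its probe set with the highest mean. Named genes were all member probe sets, up to 6 list genes that passed in a comparison (otherwise the 2 of smallest p), the 3 genes most like each member above background by Pearson r, and Kit and Cd44. The members and lists were chosen with earlier results of these data known. Alternatives changed the normalization, filter, moderation, array weights, replicate block, arrays fitted and background level. The fitting code was tested on simulated data. No scan dates or other batches were used.

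To see if arrays of equal replicate number belong together, their deviations from the group means were correlated between groups. Equal numbers gave 0.26, 0.304 and 0.299 between 17βE and control CD44+ arrays, and the pairing check was counted as met there. It was also counted as met between c-kit+ and CD44+ arrays of 17βE cultures (0.386, 0.129 and 0.286). It was not met between 17βE and control c-kit+ arrays (0.318, 0.016, 0.218) or between fractions of control cultures (0.14, 0.09, -0.236). No main comparison used this pairing. All SE and p-values are unpaired, apart from those of the alternative with the replicate number as a block.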

Additional observations from a re-analysis of the deposited data

How the results depend on the processing

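Of 1722 values of single member probe sets under the alternatives, 1685 kept their side of the threshold, 10 lost a call and 27 gained one; 109 changed sign with no call on either side and none with a call. Tnf in the averaged 17βE comparison ranged from 0.57 to 0.72 (adjusted p 0.00104 to 0.0303). With the replicate number as a block, Csf1 1425155_x_at passed in 17βE cultures (adjusted p = 0.0129), osteoprotegerin 1449033_at passed in control cultures (adjusted p = 0.0221), where the pairing check was not met, and no other member call changed; over all probe sets the block gave 72 calls in c-kit+ cells (41 without) and 902 between fractions of control cultures (578 without). Array weights gave 3 member calls in CD44+ cells (0 without: Tnf, Csf1 1460220_a_at and Tnfrsf11a 1419214_at at -0.47) and 992 calls in all (74 without), 691 in the averaged comparison (275 without), and 1156 and 1035 between fractions (578 and 665 without); CD44+ control replicate 2 had a weight of 5.96 and c-kit+ control replicate 3 of 0.289. With the 6 arrays of a comparison alone, c-kit+ cells gave 0 calls for 17βE, control cultures 0 member calls and 208 in all, and 17βE cultures 4 member calls. One probe set a gene gave 173 calls in the averaged comparison. Probe sets at or above the median level gave 1 member call and 443 in all between fractions of 17βE cultures (osteoprotegerin was not among those tested), where trend and robust moderation gave 4 member calls. Averaging both cultures, chosen after seeing the data, gave 4 member calls and 1729 in all. Leaving out 1 replicate at a time, 17βE in c-kit+ cells gave 12 to 64 calls, in CD44+ cells 18 to 133 (0 to 1 members), in the average 149 to 464 (Tnf each time), and between fractions 258 to 586 in control cultures (1 to 4 members) and 359 to 857 in 17βE cultures (0 to 4 members). The averaged count moved by over 1.5 times without c-kit+ control replicate 3 (464), c-kit+ 17βE replicate 2 (149), CD44+ 17βE replicate 2 or 3 (161 each) and CD44+ control replicate 2 or 3 (183 each). With 1 replicate left out, 8 member probe sets stayed above background in each group. Other background levels gave 8 to 12 member probe sets in a group. The causes were not tested. Probe sets at background limit what can be said of RANK ligand, Il34 and osteoprotegerin.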
